A study of Homo sapiens with 4 samples.

Results

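Nucleoside diphosphate kinases of the NME family were followed in HEK293, a widely used human line of embryonic kidney origin, after siRNA against CNOT4. The members are the 7 rows named NME1, NME2, NME1-NME2, NME3, NME4, NME6 and NME7, of 20457 rows in each expression table, with the NME1-NME2 readthrough row kept apart from the rows of the 2 genes it joins. They were selected on the family name and on the low value of NME2 in the siCNOT4 libraries, so the comparison of the groups is a description for the members and carries no test. CNOT4 is an E3 ubiquitin ligase that works with the CCR4-NOT deadenylase complex, and the study asked whether it takes part in how codon choice shapes expression. Wild-type HEK293 cells received 10 nM siRNA and were collected after 72 h. The siControl group (n = 2) had a negative control siRNA and the siCNOT4 group (n = 2) had siRNA against CNOT4. The libraries were stranded and selected for poly(A) RNA. No label says that replicates came from separate cultures, so the errors and p-values measure only the spread between these libraries.

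Nucleoside diphosphate kinases move the terminal phosphate of a nucleoside triphosphate, usually ATP, to a nucleoside diphosphate, and so keep the pools of GTP, CTP, UTP and the deoxynucleotides filled. The phosphate passes through a histidine of the enzyme. NME1 and NME2 are the abundant cytosolic members and assemble into mixed hexamers. NME1 is known as a metastasis suppressor, and NME2 has also been described as a DNA-binding protein. NME3 is tied to the outer membrane of mitochondria, NME4 acts inside mitochondria, NME6 is a divergent mitochondrial member, and NME7 belongs to the gamma-tubulin ring complex and to the ciliary axoneme.

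NME1 and NME2 stand in tandem on the plus strand of chromosome 17. In GENCODE 29 (GRCh38) NME1 spans chr17:51153536-51162428 and NME2 spans chr17:51165435-51171747, with 3006 bases between them. NME1-NME2 spans chr17:51153590-51171744 and splices exon 4 of NME1 to exon 2 of NME2. The annotated NME1-NME2 transcripts covered 1241 exon bases, of which 638 also lay in NME1 exons, 603 in NME2 exons and 0 in neither. NME1 and NME2 shared 0 exon bases with each other. NME1 had 522 exon bases of its own and NME2 had 799. The readthrough joint is shown because it is the place where an NME1-NME2 transcript departs from NME1. In the following 30 bases, read 5′ to 3′, capitals mark the end of exon 4 at base 51161272 and lower case the start of the next exon, at 51161728 for NME1 and at 51166827 for NME1-NME2.
NME1 exons 4 and 5: CATACAAGTTGGCAGgaacattatacatgg
NME1-NME2 exons 4 and 5: CATACAAGTTGGCAGgaccatggccaacct
Both joints begin with the same exon 4 bases, so the letters tell a readthrough read from an NME1 read here only where the read runs past the joint.

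**Figure D1:**
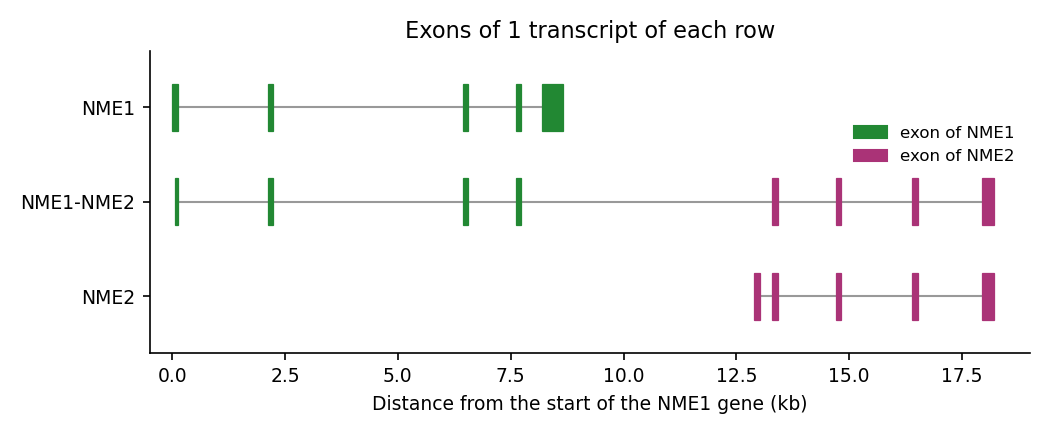
Exons of 1 annotated transcript each of NME1, NME1-NME2 and NME2, drawn to scale along the distance from the start of the NME1 gene in kb. Boxes are exons and lines are introns, and the NME1-NME2 boxes take the colour of the gene whose exon they repeat. The first 4 boxes of the readthrough lie in NME1 and the last 4 in NME2.

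The genes are also related in sequence. The 3 internal coding exons have equal lengths in NME1 and NME2, and their bases were 76.9% identical in exon 2, 81.4% in exon 3 and 87.6% in exon 4. Exon 3 (chr17:51159980-51160081 in NME1 and chr17:51168242-51168343 in NME2, plus strand) is shown because it lets the spacing of the differences be seen. Capitals mark the 19 of 102 bases that differ.
NME1 exon 3: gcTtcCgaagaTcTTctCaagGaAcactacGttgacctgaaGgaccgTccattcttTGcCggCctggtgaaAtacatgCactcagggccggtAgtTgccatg
NME2 exon 3: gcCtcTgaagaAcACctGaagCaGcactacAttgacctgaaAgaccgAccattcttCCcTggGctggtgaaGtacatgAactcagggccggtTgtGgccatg
The longest run without a difference was 13 bases in this exon and 23 bases over the whole coding sequence, which is 456 bases in each gene with 369 identical. Of 777 windows of 50 bases along an NME2 transcript, 0 occurred in the NME1 transcript and 71.4% occurred in the NME1-NME2 transcript. In the pseudogene NME2P1, 4.63% of them occurred. By letters, then, NME1 and NME2 are separable over 50 bases, while NME2 and the readthrough mostly are not. RefSeq (GRCh38.p14) places a start site of NME1 and of NME1-NME2 at the same base, 51153559, and those of NME2 at 51165536, 51166411 and 51166501.

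Expression was given as TPM, reads per length of the feature scaled to a fixed sum in each library. Whole reads recovered from the TPM values came to 27580609 and 25687401 in siControl and to 28974140 and 28680092 in siCNOT4. CNOT4 (chromosome 7, minus strand) had 6.43 and 4.73 TPM in siControl and 3.38 and 3.81 TPM in siCNOT4. The groups did not overlap, and the siCNOT4 mean was 35.6% lower. The log2 difference of -0.51 (SE 0.26) did not pass the test (limma with Benjamini-Hochberg adjustment, adjusted p = 0.184), and it did in 5 of 11 alternatives: -0.70 without siControl replicate 2, -0.98 after TMM scaling, -1.15 after quantile normalization, -1.14 with a trend on length and GC content taken out and -0.91 by voom on the recovered reads. Over all alternatives its adjusted p ran from 0.00975 to 0.743. Over the 14208 features that averaged 1 TPM or more, 1792 passed an adjusted p of 0.05 (12.6%), 1608 higher (11.3%) and 184 lower (1.3%), and the median log2 difference was 0.50. The split depended on scaling: it was 611 higher and 794 lower after TMM scaling, 1010 and 1169 after quantile normalization, and 1561 and 1786 with the trend on length and GC content taken out, and the median of all features was then -0.02, 0.02 and 0.00. siControl replicate 2 stood apart: features of at most 1000 bases took 41.7% of its TPM, against 33.1% in siControl replicate 1 and 28.8% and 28.5% in siCNOT4.

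NME2 showed the widest gap among the members. It was listed at 1420 and 2308 TPM in siControl and at 491 and 469 TPM in siCNOT4. Both siCNOT4 libraries were far below both siControl libraries, and siControl replicate 2 was the high one. These values rest on 22895, 42228, 7534 and 7111 reads, and the exact Poisson intervals at 95% ran from 1402 to 1439 and 2286 to 2330 TPM in siControl and from 480 to 502 and 458 to 480 TPM in siCNOT4. Such intervals cover counting error only, since the reads carry no molecular identifiers. The group means were 1864 ± 627 and 480 ± 15.5 TPM (SD, n = 2 each), which puts siCNOT4 at 0.257 of siControl. On the log2(TPM + 1) scale the difference was -1.91 (SE 0.23), and only 6 of the 14208 features had a lower one. By level, NME2 ranked 85th and 62nd of all features in siControl and 243rd and 254th in siCNOT4. In bulk RNA, fewer cells with the transcript and less of it per cell cannot be told apart.

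NME1, the other cytosolic member, was listed at 732 and 1165 TPM in siControl and at 543 and 555 TPM in siCNOT4. The groups did not overlap, but siControl replicate 1 lay much nearer to the siCNOT4 libraries than siControl replicate 2 did. The means were 949 ± 306 and 549 ± 8.44 TPM (SD, n = 2 each), and the log2 difference was -0.75 (SE 0.22). Without siControl replicate 2 it was -0.42, and without siControl replicate 1 it was -1.08.

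The NME1-NME2 row was listed at 1741 and 2769 TPM in siControl and at 767 and 746 TPM in siCNOT4. It had the highest TPM of the 7 rows in every library, and it followed NME1 and NME2 in being higher in siControl replicate 2. Its log2 difference was -1.54 (SE 0.22), between those of the 2 genes whose exons it repeats.

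**Figure D2:**
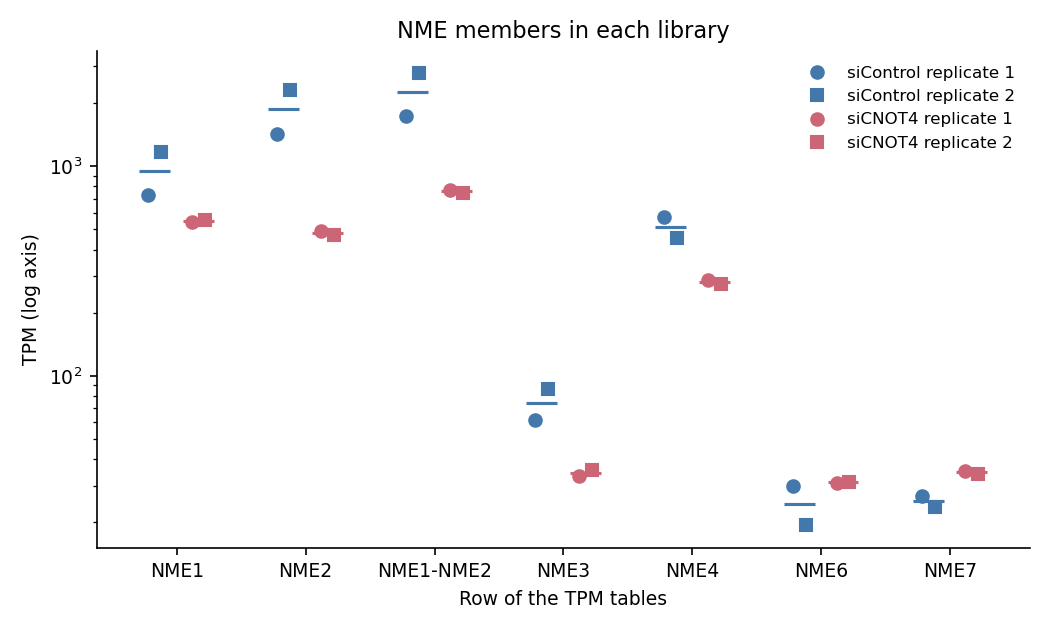
TPM of the 7 members in each library on a log axis. Blue stands for siControl and red for siCNOT4, circles for replicate 1 and squares for replicate 2, and bars for group means. NME2 goes from 1864 to 480 TPM, the siControl replicates of the locus rows lie far apart, and NME6 and NME7 sit near 30 TPM in both groups.

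Because the 3 rows share exons, they were also compared in reads. NME1 and NME2 together held 32681 and 59893 reads in siControl and 14443 and 14088 in siCNOT4. The NME1-NME2 row held 29218, 52753, 12258 and 11785 reads, which is 89.4%, 88.1%, 84.9% and 83.7% of those sums. In every library, then, the readthrough row carried a little less than the reads of both genes added. In GENCODE 29 no exon base of the readthrough lies outside the 2 genes. The authors counted on hg19 models that were not used here, and their recovered lengths of 1031, 1244 and 1295 bases differ from the 1160, 1402 and 1241 exon bases of NME1, NME2 and NME1-NME2 in GENCODE 29. How the authors' counting treated a read that overlaps several rows is not given in the sources used here. The NME1-NME2 value therefore cannot be read as the amount of readthrough transcript, and the TPM of the 3 rows may count the same reads more than once. NME1 plus NME2 exceeded the readthrough row by 3463, 7140, 2185 and 2303 reads. Had each read been counted in every row it overlaps, this surplus would hold the reads wholly on bases that belong to 1 gene alone. It would also hold any reads across the readthrough joint, since those would count in both genes. The number of reads across the readthrough joint was not analysed here.

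**Figure D3:**
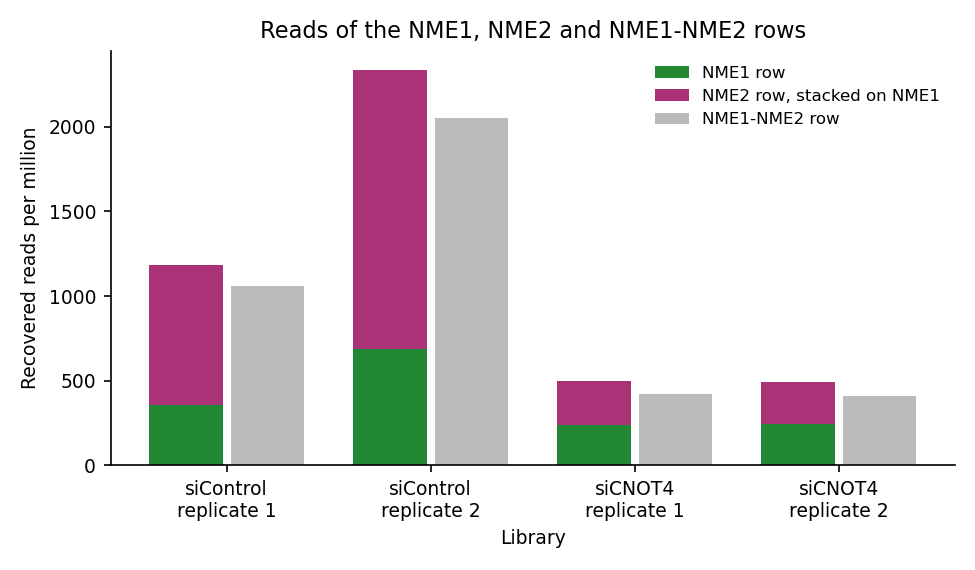
Recovered reads per 1000000 in each library: the NME1 row with the NME2 row stacked on it (left bar) and the NME1-NME2 row (right bar). The stacked bars reach 1185 and 2332 per 1000000 in siControl and 498 and 491 in siCNOT4, and each grey bar is slightly shorter than its neighbour.

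A ratio within a library stays the same when the whole library is multiplied by a constant, as in TMM scaling, but not under quantile normalization or trend removal. With the trend taken out, for example, NME1 was at -0.92 and NME2 at -1.94. NME2 had 1.94 and 1.98 times the TPM of NME1 in siControl, and 0.904 and 0.845 times in siCNOT4. The replicates of each group were close and the groups were far apart, although siControl replicate 2 had 1.59 times the NME1 value of replicate 1. On the log2 scale the ratio differed by -1.17, against gaps between replicates of 0.0311 and 0.0975. In reads, NME2 made up 70.1% and 70.5% of NME1 plus NME2 in siControl and 52.2% and 50.5% in siCNOT4. These ratios use the NME2 values by which the members were selected, so they are a description only. Of the 3-row TPM sum, 5068 ± 1660 in siControl and 1785 ± 21.8 in siCNOT4 (SD, n = 2 each), NME2 took 36.5% and 37% in siControl and 27.3% and 26.5% in siCNOT4. The readthrough row to NME1 went from 2.38 in both siControl libraries to 1.41 and 1.34 in siCNOT4. Since the readthrough row may repeat the NME2 reads, this ratio may restate the same selected values.

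NME3 and NME4 were lower in siCNOT4 as well, while NME6, the other mitochondrial member, is given with NME7 further on. NME3 (chromosome 16, minus strand) was listed at 61.3 and 86.5 TPM in siControl and at 33.2 and 35.7 TPM in siCNOT4. The groups were well separated, at 73.9 ± 17.8 and 34.5 ± 1.77 TPM (SD, n = 2 each), and the log2 difference was -1.06 (SE 0.23). NME4 (chromosome 16, plus strand) was listed at 570 and 456 TPM in siControl and at 285 and 274 TPM in siCNOT4, a log2 difference of -0.87 (SE 0.16). Unlike the rows of the NME1 and NME2 locus and NME3, NME4 was lower in siControl replicate 2 than in replicate 1. NME4 had 0.778 and 0.391 times the TPM of NME1 in siControl, against 0.524 and 0.493 times in siCNOT4, so these groups overlapped and the 2 genes could not be ordered by how far they moved.

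NME6 and NME7 did not share the low values. NME6 (chromosome 3, minus strand) was listed at 29.7 and 19.4 TPM in siControl and at 31.0 and 31.1 TPM in siCNOT4. siControl replicate 1 lay next to the siCNOT4 libraries, and only replicate 2 was clearly lower. NME7 (chromosome 1, minus strand) was listed at 26.6 and 23.8 TPM in siControl and at 35.3 and 34.1 TPM in siCNOT4. Their log2 differences were 0.36 (SE 0.27) and 0.45 (SE 0.21), both under the median of 0.50 over all features, and the signs turned to -0.20 and -0.11 after TMM scaling and to -0.14 and -0.03 after quantile normalization. With the trend on length and GC content taken out they were -0.03 for NME6 and 0.02 for NME7. Without siControl replicate 2 the NME6 difference was 0.06. For these members no direction can be given apart from the scaling.

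All 7 members passed the filter on low values. Of the 7, 5 had both siCNOT4 libraries below both siControl libraries, an arrangement that 10.6% of all features had, and 2 had both above, which 66.4% of features had. With the same threshold as the whole table, 4 members would be called lower (NME2, NME1-NME2, NME3 and NME4) and 0 higher. Of all features, 1.3% were called lower and 11.3% higher. Nothing is read from these counts, since the contrast was used to choose the members, and NME1-NME2 may repeat reads of others. By mean TPM the order in siControl was NME1-NME2, NME2, NME1, NME4, NME3, NME7 and NME6. Across libraries the ranges of NME1-NME2 and NME2 overlapped, as did those of NME7 and NME6, and the other neighbours in the order did not overlap. In siCNOT4 the order was NME1-NME2, NME1, NME2, NME4, NME7, NME3 and NME6, with overlap between NME7 and NME3 only. Together the 7 rows took 0.458% and 0.683% of all TPM in siControl and 0.219% and 0.214% in siCNOT4.

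**Figure D4:**
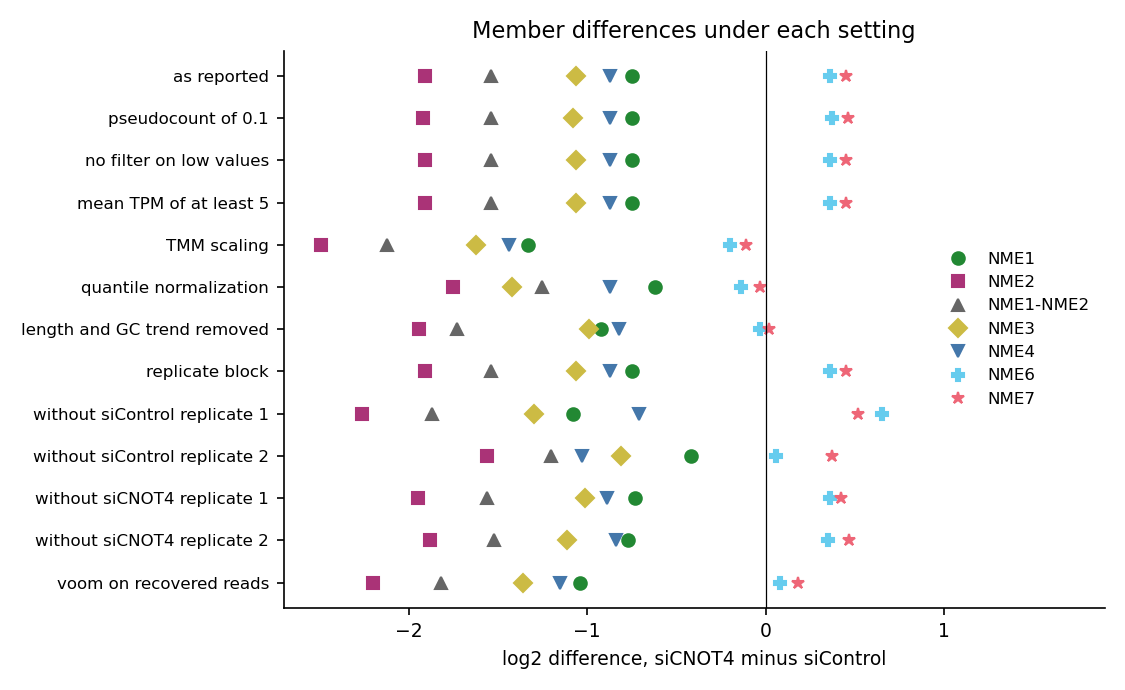
log2 difference (siCNOT4 minus siControl) of each member as reported and under each of 12 other settings. NME2 runs from -2.49 to -1.56 and is the lowest marker in every row, while NME6 and NME7 change side of 0 with the scaling.

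Length moved with the comparison too. The lengths recovered from the TPM values were 1031 bases for NME1, 1244 for NME2, 1295 for NME1-NME2, 1014 for NME3, 1007 for NME4, 1169 for NME6 and 1623 for NME7. Features of over 1000 and up to 2000 bases, where all members lie, had a median log2 difference of 0.26 over 2721 features. Shorter ones had 0.14 and longer ones 0.59. NME2 was at -1.94 with the trend on length and GC content taken out, NME6 at -0.03 and NME7 at 0.02. Before that NME2 was at -1.91, but the median of all features also moved, from 0.50 to 0.00. Relative to that median, NME2 was at -2.41 before the trend was taken out.

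The features most like NME2 were sought by the distance between their 4 log2(TPM + 1) values, each centred on its own mean, among 11387 non-member features averaging 5 TPM or more. The nearest was MT1X, a metallothionein, at a distance of 0.178, with 91.9 and 134 TPM in siControl and 32.5 and 30.9 TPM in siCNOT4. TMSB4X, which encodes the actin-binding thymosin beta-4, came next at 0.277, followed by the mitochondrial hydrolase HINT2 at 0.336. The stress cytokine GDF15 was at 0.415 and the metallothionein MT2A at 0.475. Metallothionein genes resemble each other, so their reads may be split among copies. NME1 had closer company: RPS21, a ribosomal protein of the small subunit, was at 0.0362, C7orf50 at 0.0426, FAM195A at 0.0526, RPS19, of the same subunit, at 0.0621 and C1orf86 at 0.0629. RPS21 was listed at 2575 and 4060 TPM in siControl and at 1951 and 1990 TPM in siCNOT4, so it had the same high siControl replicate 2 as NME1. These features were chosen for their likeness over 4 libraries, and no test was made of it.

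Genes around the family were taken from 10 lists of enzymes, partners and neighbours. Of 75 distinct list members tested, 5 were called higher and 4 lower by limma with Benjamini-Hochberg adjustment. The share called in either direction was near the 12.6% of all features, but the split by direction was not. All features had 11.3% higher and 1.3% lower in the TPM as deposited. The split over all features depended on scaling, at 611 higher and 794 lower after TMM scaling and 1010 and 1169 after quantile normalization. Nothing is read from the split of the lists, which rests on 4 lower calls. The median log2 difference of the list members was 0.34, against 0.50 for all features. Among NME genes outside the set, NME5, a divergent member expressed in ciliated cells, was listed at 13 and 14.9 TPM in siControl and at 27.3 and 26.3 TPM in siCNOT4. Its log2 difference was 0.90 and did not pass (limma adjusted p = 0.0573). It was 0.35 after TMM scaling and after quantile normalization and 0.37 with the trend taken out. NME9 was under 1 TPM in every library and was not tested.

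The other nucleoside mono- and diphosphate kinases supply the diphosphates that NME enzymes use. Of 11 tested, 3 rose, 0 fell and 8 did not pass, with a median of 0.56. Over all features 11.3% were called higher and 1.3% lower, and the median was 0.50. CMPK1, the UMP and CMP kinase, was listed at 68.5 and 43.1 TPM in siControl and at 119 TPM in both siCNOT4 libraries (log2 difference 1.12, limma adjusted p = 0.0437). AK7 and AK8, adenylate kinases of cilia, were low, at means of 1.32 and 2.65 TPM in siControl and 5.06 and 6.60 TPM in siCNOT4, with log2 differences of 1.39 and 1.06 (limma adjusted p = 0.0274 and 0.0441). Over all 4 libraries neither averaged 5 TPM.

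For the supply of deoxynucleotides, 0 of 12 passed by limma and 0 by voom on the recovered reads, while 7 had an unadjusted p under 0.05 and all 12 had positive differences (5 of 12 after TMM scaling), with a median of 0.51. Over all features tested, 12.6% passed by limma, and 2105 of 14199 passed by voom. Of all features, 42% had an unadjusted p under 0.05 and 81.2% a positive difference (48.6% after TMM scaling). Thymidylate synthase (TYMS) was its most abundant member, at 443 and 377 TPM in siControl and 508 and 529 TPM in siCNOT4, a log2 difference of 0.34 that turned to -0.24 after TMM scaling. Of 13 genes of purine synthesis, 1 rose, 1 fell and 11 did not pass, with a median of -0.01. All features had 11.3% higher, 1.3% lower and a median of 0.50. IMPDH2, the enzyme that commits IMP to guanine nucleotides, fell from 477 and 470 TPM to 290 and 262 TPM (log2 difference -0.78, limma adjusted p = 0.0288). GMPS, the next enzyme on that path, rose from 113 and 97.7 TPM to 169 and 163 TPM (0.65, limma adjusted p = 0.0492) but was at -0.24 with the trend on length and GC content taken out. The enzymes of consecutive steps thus had opposite signs in the TPM values as deposited.

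Of 5 genes of pyrimidine synthesis, 0 passed by limma or by voom and 1 had an unadjusted p under 0.05. Over all features 12.6% passed by limma, 2105 of 14199 passed by voom and 42% had an unadjusted p under 0.05. CTP synthase 1 (CTPS1), whose product NME enzymes also make, was listed at 125 and 103 TPM in siControl and at 115 and 122 TPM in siCNOT4, with overlapping groups. Its log2 difference of 0.06 was negative after TMM scaling, quantile normalization and trend removal. After trend removal it was -0.45 and passed (limma adjusted p = 0.0408), as did 3347 of 13734 features in either direction. In base and nucleoside salvage, 0 of 8 rose, 1 fell and 7 did not pass, with a median of 0.10. All features had 11.3% higher, 1.3% lower and a median of 0.50. The gene that fell was APRT, which salvages adenine, from 494 and 719 TPM to 279 and 266 TPM (log2 difference -1.13, limma adjusted p = 0.0306).

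Partners of the family were mixed. For dynamin-family GTPases, which NME enzymes can supply with GTP, 0 of 4 passed by limma, 1 by voom and 2 at an unadjusted p under 0.05. Over all features 12.6% passed by limma, 2105 of 14199 passed by voom and 42% had an unadjusted p under 0.05. DNM1L, the mitochondrial fission dynamin, was listed at 79.7 and 44.6 TPM in siControl and at 107 and 103 TPM in siCNOT4. Of the SET complex and PRUNE1, with which NME1 associates, 0 of 6 passed by limma, 2 by voom and 2 at an unadjusted p under 0.05, beside 42% of all features, with a median of -0.25. HMGB2, a chromatin protein of that complex, was listed at 570 and 530 TPM in siControl and at 412 and 386 TPM in siCNOT4 (log2 difference -0.46, limma adjusted p = 0.0605). HMGB2 passed in 5 of 12 alternatives, among them -1.04 after TMM scaling, -0.81 with the trend taken out and -0.75 by voom, and its adjusted p ran from 0.00252 to 0.567.

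Of the gamma-tubulin ring complex, which nucleates microtubules and holds NME7, 0 of 11 rose, 2 fell and 9 did not pass, with a median of 0.73. All features had 11.3% higher, 1.3% lower and a median of 0.50. The genes that fell encode the small subunits MZT2A, from 116 and 170 TPM to 67.0 and 66.7 TPM (log2 difference -1.06, limma adjusted p = 0.0411), and MZT2B, from 161 and 229 TPM to 107 and 95 TPM (-0.92, limma adjusted p = 0.0453). These genes are near copies, and how reads were split between them is uncertain. Of all 11, 9 had positive differences in the TPM as deposited and 7 after TMM scaling, beside 81.2% and 48.6% of all features.

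The neighbours of the locus differed among themselves. SPAG9, a scaffold of JNK signalling that lies 32671 bases before NME1 on the other strand, rose from 65.6 and 32.6 TPM to 132 and 131 TPM (log2 difference 1.48, limma adjusted p = 0.0433). MBTD1, a chromatin reader that lies 5678 bases beyond NME2 on the other strand, was listed at 25.8 and 9.56 TPM in siControl and at 32.5 and 30 TPM in siCNOT4 and did not pass (limma adjusted p = 0.155). Farther out, TOB1, an antiproliferative protein that binds the CCR4-NOT complex, had a log2 difference of -0.28 and UTP18, a ribosome biogenesis factor, one of 0.35, and neither passed (limma adjusted p = 0.337 and 0.113). TOB1 passed as lower in 4 of 12 alternatives, at -0.84 after TMM scaling, -0.78 after quantile normalization, -0.81 with the trend on length and GC content taken out and -0.37 without siControl replicate 2. Its limma adjusted p ran from 0.0147 to 0.837 over the alternatives.

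**Figure D5:**
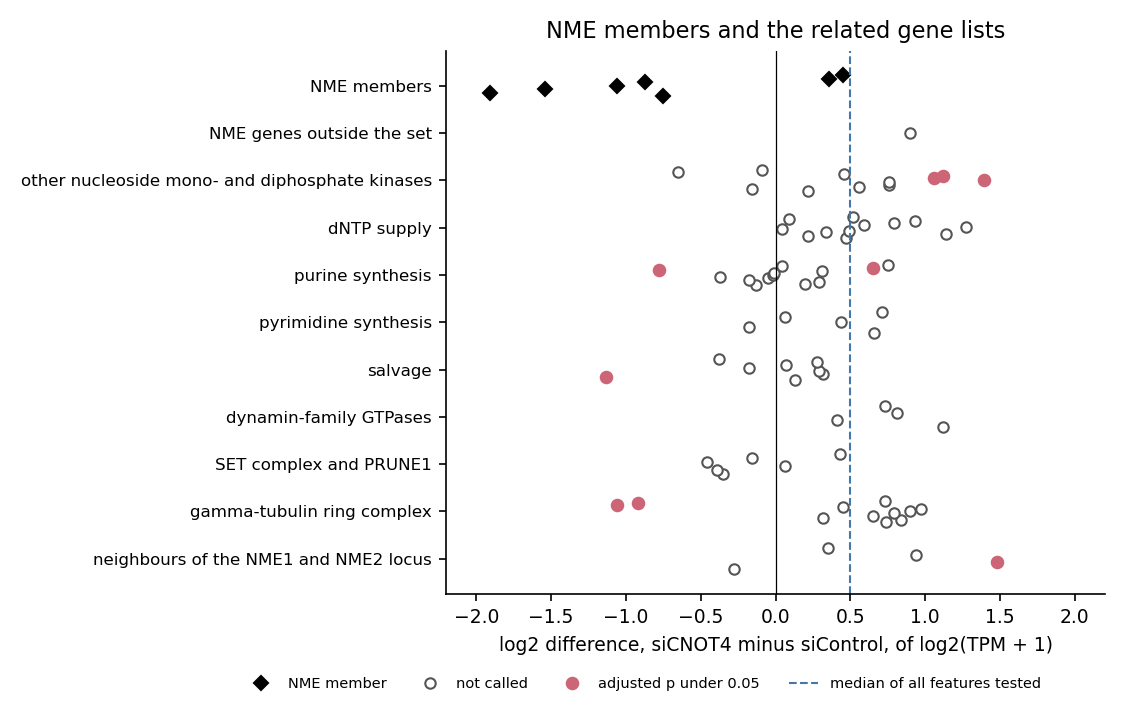
log2 difference (siCNOT4 minus siControl) of log2(TPM + 1) for the NME members (diamonds, not tested) and for the tested genes of the 10 lists (circles, filled where the limma adjusted p is under 0.05). The dashed line is the median of all features, 0.50. NME2 at -1.91 and NME1-NME2 at -1.54 lie below every list gene drawn.

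The calls among the list genes depended on the setting. In the fits that left 1 library out, the number called moved up and down with the number called over all features. The lone library is then assumed to vary like the others, so nothing is read from those numbers. Over features averaging 5 TPM or more, limma called 0 list genes, beside 147 of 11395 features. There 30 list genes had an unadjusted p under 0.05, as did 39.3% of all features. After TMM scaling CMPK1, AK8, GMPS, MZT2B and SPAG9 did not pass. With a pseudocount of 0.1, AK7, APRT and IMPDH2 passed and the other called genes did not. Without a filter on low values only IMPDH2 passed. After quantile normalization AK8 and GMPS did not pass, and GMPS also failed after trend removal and by voom.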

How the data were processed

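The authors deposited 1 table of TPM per library, with 20457 features each. Per the submitters' processing notes, FastQC 0.11.2, STAR 2.5.3a, featureCounts and the hg19 build were used. The annotation and the options for strand and overlapping features are not given in the sources used here.

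The members and lists were chosen with earlier results of these data known. Groups came from sample titles. TPM was taken as log2(TPM + 1), which understates the change of low features, and features averaging 1 TPM or more (14208) were fitted with limma 3.58.1 in R 4.3.3 (lmFit and eBayes with a trend), 2 libraries against 2, with Benjamini-Hochberg adjustment at 0.05. In simulated data on 14208 features, 55 of 200 genes with an imposed log2 change of 1 were called with 5 unchanged ones. With a change of 2, 199 of 200 were called with 26 unchanged ones. The simulation used independent noise and no shift over all features, whereas the median difference in these data was 0.50. Its rates therefore need not hold for the calls given here.

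TPM equals reads times a library constant divided by length, so for each feature the shortest length that gives whole reads in every library was sought. One was found for 99.9% of features, to within 0.001 reads. With shifted constants, 0 of 209 features gave one. These 209 were drawn only from features well expressed in every library, so the trial does not cover features with few reads. A read counted in several rows counts several times in the totals. Exon positions and sequences came from GENCODE 29 (GRCh38), and no coordinate was converted from hg19. Of the features, symbols matched GENCODE directly or through an older RefSeq synonym where the length and GC trend was removed (13734 tested).

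Named genes were the members, CNOT4, up to 3 called genes per list with the largest difference (or else its most abundant member), all 4 neighbours and the 5 features nearest to NME2 and to NME1. The alternatives were another pseudocount, other filters, TMM scaling, quantile normalization, trend removal, a replicate block and leaving out each library. Fits with voom on recovered reads, and sums in recovered reads per 1000000, were chosen after seeing the data.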

Additional observations from a re-analysis of the deposited data

How the results depend on the processing

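NME1, NME2, NME1-NME2, NME3 and NME4 kept a negative difference under all 12 alternatives, with NME2 between -2.49 and -1.56. The other filters and the replicate block cannot move a member's difference, so they carry no information on this. TMM scaling gave -1.33 for NME1, -2.49 for NME2, -2.12 for NME1-NME2, -1.62 for NME3, -1.44 for NME4, -0.20 for NME6 and -0.11 for NME7. Quantile normalization gave -1.42 for NME3, -0.14 for NME6 and -0.03 for NME7. Trend removal gave -0.03 for NME6 and 0.02 for NME7. Voom gave -1.36 for NME3, -1.15 for NME4 and 0.18 for NME7. Members called lower ranged from 1 without a filter, beside 61 of 19734 features, to 5. Trend removal gave 5 beside 1786 of 13734 features, and the replicate block gave 5 beside 313 of 14208 features. The summed locus was at -2.04 after TMM scaling and at -1.82 in reads of the readthrough row per 1000000, against -1.46, and the NME2 share differed by -19.6 percentage points without the readthrough row, against -9.85.

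CNOT4 passed at -0.98 (TMM scaling), -1.15 (quantile normalization), -1.14 (trend removal) and -0.91 (voom). It ranged from -0.70 to -0.32 with 1 library left out, and had no value with a minimum mean TPM of 5, which it does not reach. Features called numbered 558 with a pseudocount of 0.1, 908 without a filter, 147 with the stricter filter and 3347 after trend removal, and list genes called numbered 3, 1, 0 and 27. With 1 library left out they ranged from 450 to 11311 and from 2 to 57; the lone library is then assumed to vary like the others. Signs turned for TYMS (-0.24) and CTPS1 (-0.51) after TMM scaling, for GMPS (-0.24) and CTPS1 (-0.45) after trend removal, and for UTP18 after both (-0.22 and -0.05). CTPS1 was also at -0.20 after quantile normalization, between -0.08 and 0.20 with 1 library left out (-0.08 without siControl replicate 2) and at -0.22 with voom. The cause of these changes was not tested.

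Replicate numbers are shared by the groups, but nothing says what they share, and the deviations of the replicates numbered 1 correlated at 0.171 across features. With a replicate block, 3655 features and 16 list genes were called. Every member kept its value, which a block in this balanced design cannot change. Each group has 2 libraries, which limits every error given, and depth does not limit the members, the shallowest of which had 334 reads in a library.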

Other observations

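Other readthrough rows of the tables were surveyed in the same way, as values only. With both partner rows present and a mean TPM of at least 1, there were 100 such rows, and NME1-NME2 was the most abundant. The reads of a readthrough row were at most the sum of its partners in every library for 94 of them, and over 0.5 of that sum in every library for 69. The median ratio was 0.747. RPL17-C18orf32 had ratios of 0.9434, 0.941, 0.9305 and 0.932, and RPS10-NUDT3 had 0.9919, 0.9933, 0.9907 and 0.9897, so both lay nearer to the full sum than NME1-NME2 did. These rows were picked after their values were seen.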
